A study of Homo sapiens with 9 samples.

Results

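The cell line KYSE30, derived from a human squamous cell carcinoma of the esophagus, received either miR-181b or a negative control by transfection, and RNA taken on day 3 was measured on Illumina expression arrays. Both cultures received a Lipofectamine reagent, so the control shares the transfection itself, and each of these 2 groups had 1 array of the 9 in the series. The other 7 arrays, also 1 per group, came from the same line transfected with miR-32, miR-455, miR-181a, siPIK3R1, siPIK3R3, a miRNA combination or an siRNA combination. The siRNAs are named for PIK3R1 and PIK3R3, genes of regulatory subunits of the lipid kinase PI3K. The sequence of the negative control, the arm and dose of miR-181b and the contents of the combinations are not stated in the labels. The comparison takes the probes detected on at least 1 of the 2 arrays at a detection p under 0.01. These were 15917 of the 47317 probes on the array and of the 19006 detected on any of the 9 arrays.

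MicroRNAs are short RNAs that guide Argonaute proteins to messenger RNAs, mostly through pairing of their seed, bases 2 to 8, with sites in the transcript, and they lower the stability and the translation of these messengers. The miR-181 family is known for its roles in lymphocyte development and for both growth-promoting and growth-limiting effects in tumors, depending on the tissue. An array of messenger RNA reads the first of these outcomes, a changed transcript level, together with every change downstream of it. It does not read translation.

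The mature sequences are shown because the series also holds miR-181a, which has the same seed, and miR-32 and miR-455, which do not. They are RefSeq sequences on GRCh38.p14, written 5′ to 3′ with the seed in capitals, and the 5p arm stands first in each precursor.
hsa-miR-181b-5p: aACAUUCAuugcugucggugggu
hsa-miR-181d-5p: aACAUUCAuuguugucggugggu
hsa-miR-181a-5p: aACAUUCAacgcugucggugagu
hsa-miR-181c-5p: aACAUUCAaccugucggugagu
hsa-miR-181b-3p: cUCACUGAacaaugaaugcaa
hsa-miR-32-5p: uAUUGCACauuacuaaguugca
hsa-miR-455-5p: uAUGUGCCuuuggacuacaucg
hsa-miR-455-3p: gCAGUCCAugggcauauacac

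The seed ACAUUCA pairs with UGAAUGU in a transcript, and 5 of the 2370 mature microRNA names in the table carried it, the 4 miR-181 family members and hsa-miR-4262. Counted from 1 at the 5′ end, miR-181b-5p differs from miR-181a-5p by U9A, U10C and G21A, so 20 of 23 bases are the same and all differences lie outside the seed. It differs from miR-181d-5p by C12U alone.

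The mature miR-181b-5p is encoded at 2 places. One is MIR181B1 on chromosome 1, with the mature bases at chr1:198858925-198858947 on the minus strand. The other is MIR181B2 on chromosome 9, with the mature bases at chr9:124693725-124693747 on the plus strand. MIR181B1 lies within the span of the long noncoding RNA gene MIR181A1HG, 61 bases from MIR181A1. MIR181B2 lies within the spans of NR6A1, a protein-coding gene, and MIR181A2HG, 1158 bases from MIR181A2. Exon and intron positions were not analysed here. The MIR181B1 precursor, 110 bases at chr1:198858873-198858982 on the minus strand, is shown to place the mature 5p arm, in capitals, at bases 36 to 58.
MIR181B1: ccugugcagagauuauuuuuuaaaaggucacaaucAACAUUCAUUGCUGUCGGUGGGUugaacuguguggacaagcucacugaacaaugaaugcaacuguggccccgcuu

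The files name probes by number only, and 0 of these numbers occurred in the reference gene table. All results therefore concern probes, singly or as sets. The squamous identity of the cells and the levels of predicted miR-181 targets were not analysed here for the same reason, and neither was the amount of miR-181b in the cells. No group has a second array, so no value has a replicate error, no test was possible, and a difference between arrays may be one between cultures.

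The miR-181b array had 14304 detected probes and the control 15099. The 7 others had from 14341 to 15775. The mean raw signal was 361 for miR-181b and 406 for the control. It was lower only for siPIK3R1, at 343, the miRNA combination, at 270, and the siRNA combination, at 223, and was between 392 and 468 on the remaining arrays. Signal intensities were background corrected, quantile normalized over all 9 arrays and put on the log2 scale, on which a difference of 1 is a 2-fold change.

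Most probes differed little between miR-181b and the control, and the largest differences were upward. The middle of the distribution was near 0, with a median of 0.01 and quartiles of -0.27 and 0.27 on the log2 scale. The lower and upper percentiles, 1 and 99 in 100, were -1.11 and 1.36. At 2-fold, 560 probes differed, or 3.52% of those compared, with 311 higher in miR-181b (1.95%) and 249 lower (1.56%). The probes just inside and just outside the threshold lay at 1.0021 and 0.9999 for the higher and at -1.0004 and -0.9998 for the lower direction, so it cuts through a continuous range. At 1.5-fold the balance turned, with 1268 higher (7.97%) and 1440 lower (9.05%) probes. At 4-fold it was far from even, with 65 higher (0.408%) and 8 lower (0.0503%). At 8-fold 23 of the 15917 probes compared were higher and 1 was lower. The 2-fold split of 55.5% higher to lower calls moved to 72.7% without background correction, to 65.5% with an offset of 50 in the normalization and to 20.8% with median scaling over all probes, which shifted the median difference to -0.22. With median scaling over the probes detected on every array the split was 60.4%.

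**Figure D1:**
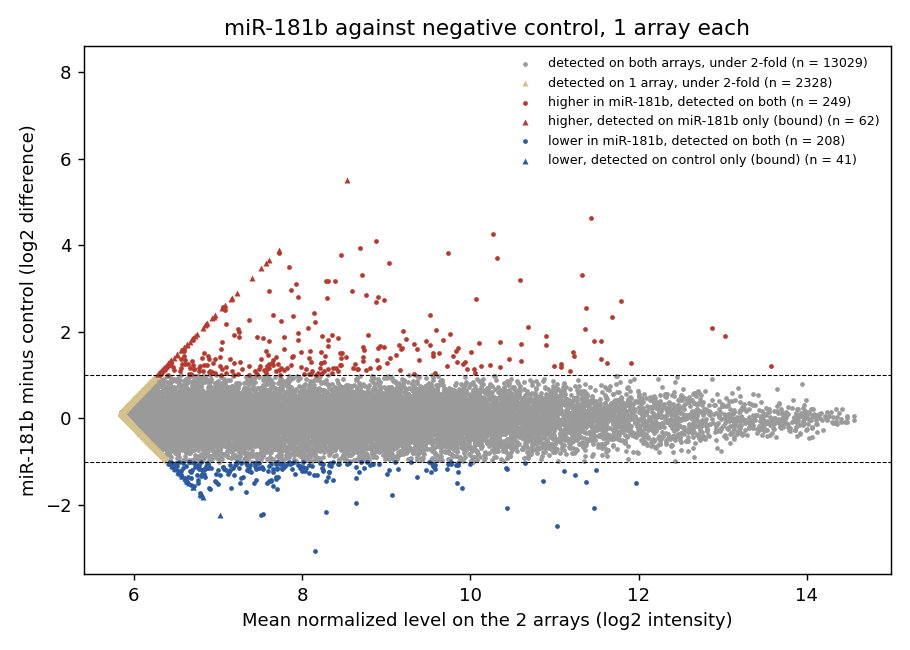
Difference between miR-181b and the control (vertical, log2) against the mean normalized level on both arrays (horizontal, log2 intensity) for the 15917 probes compared, with dashed lines at 2-fold. Circles were detected on both arrays and triangles on 1, where a difference called at 2-fold is a lower bound. Red points (311) reach further from 0 than blue points (249).

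As a yardstick, miR-32 and miR-455, which had the smallest spread of differences of all 36 pairs of arrays, gave quartiles of -0.12 and 0.12 and 7 probes at 2-fold (4 higher and 3 lower in miR-32) of 16418 compared. The standard deviation over probes was 0.48 for miR-181b minus control and 0.21 for miR-32 minus miR-455. The widest pair, miR-181a and the siRNA combination, had 0.77, so the value for miR-181b minus control lay well within the range of the pairs. The miR-32 and miR-455 arrays are transfections with different microRNAs and no repeats of one. The spread of the other comparisons with the control, which share that array, was 0.30 for miR-32, 0.31 for miR-455 and 0.33 for miR-181a. It was 0.52 for siPIK3R1, 0.56 for siPIK3R3, 0.63 for the miRNA combination and 0.74 for the siRNA combination. The miR-181b array thus lay further from the control than those of the other 3 single microRNAs and nearer to it than the siRNA and combination arrays. Set against miR-181b itself, the spread was 0.39 for siPIK3R1, 0.42 for the miRNA combination, 0.43 for miR-455 and 0.45 for miR-32. It was 0.50 for the siRNA combination, 0.53 for miR-181a and 0.55 for siPIK3R3.

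Detection on a single array accounted for part of the calls. Of the 15917 probes, 13486 were detected on both arrays, 818 on miR-181b only and 1613 on the control only. Of the higher probes, 249 were detected on both arrays and 62 on miR-181b only. Of the lower probes, 208 were detected on both and 41 on the control only. A probe detected on 1 array was set against the lowest detected level of the other (or its own value there, if higher), so that a difference called at 2-fold is a lower bound. Some probes detected on the control only came out above 0, by at most 0.14, because the lowest detected level was 5.91 on miR-181b and 5.78 on the control, and for these the value is an upper bound. The highest bound was 5.50, at least 45.4-fold higher in miR-181b, and the lowest was -2.23, at least 4.69-fold lower.

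For the 13486 probes that both arrays detected, 2-fold calls were spread over the range of brightness, and the excess of higher probes lay among the brighter ones. These 13486 probes were divided into 10 equal groups by their mean level. The 5 dimmer groups held 139 higher and 152 lower probes, while the 5 brighter groups held 110 higher and 56 lower. In the brightest group, whose median raw signal was 4155 on miR-181b and 4920 on the control, 16 probes were higher and 5 lower. The dimmest group held 6 higher and 2 lower probes, and its median difference was 0.10, against -0.02 to 0.00 in the other 9. The offset of 16 that the normalization adds shrinks differences of dim probes. In every group the standard deviation was larger for miR-181b minus control, at 0.34 to 0.53, than for miR-32 minus miR-455, at 0.15 to 0.27. The latter pair was picked for the smallest spread of all 36, so this comparison does not show an unusual spread.

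**Figure D2:**
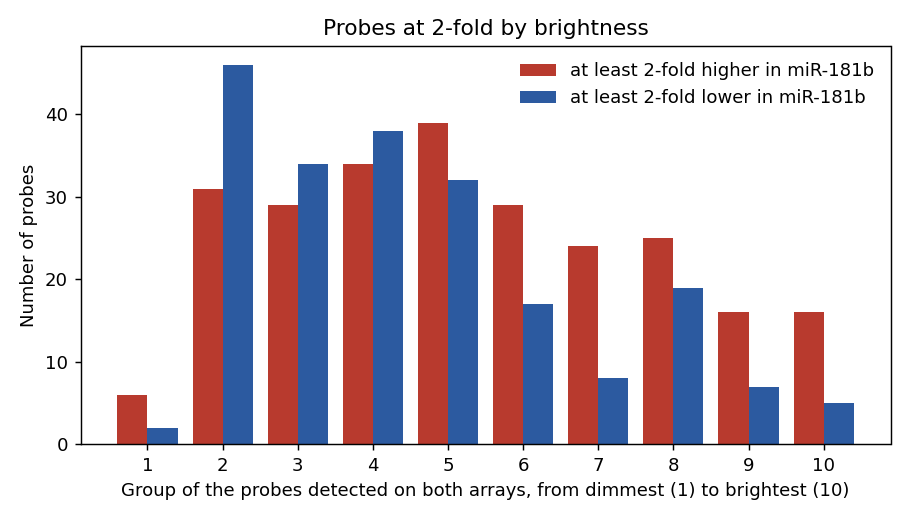
Number of probes at least 2-fold higher (red) or lower (blue) in miR-181b than in the control (vertical), in 10 equal groups of the 13486 probes detected on both arrays from the dimmest to the brightest (horizontal). Lower probes outnumber higher ones in groups 2 to 4 and are fewer in the others.

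The 2 highest and 2 lowest probes detected on both arrays were the only ones named. ILMN_1662358 had a raw intensity of 13108 on miR-181b and 672 on the control, a log2 difference of 4.62 after normalization (24.7-fold). On the 7 other arrays it ranged from 481 (miR-181a) through a median of 8591 to 16836 (siPIK3R3). The signal was thus low on the control and miR-181a arrays alone and high on the 7 others, miR-181b among them.

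ILMN_1674063 had the same arrangement. Its raw intensity was 5080 on miR-181b and 369 on the control, a difference of 4.25 (19.1-fold), and on the 7 other arrays it went from 230 (miR-181a) through 4219 to 9143 (siPIK3R3). After normalization both probes were higher in miR-181b than in miR-32 and miR-455, by 1.04 and 1.48 for ILMN_1662358 and by 1.19 and 1.23 for ILMN_1674063. Set against siPIK3R1, siPIK3R3 and the siRNA combination they were lower in miR-181b, with differences of -0.12, -0.18 and -0.54 for ILMN_1662358 and of -0.17, -0.64 and -1.37 for ILMN_1674063.

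ILMN_1796423, the lowest probe, had 957 on the control and 163 on miR-181b, a log2 difference of -3.07 (8.39-fold lower). It was lower still on the siRNA combination, at 84.2, and was not detected on the miRNA combination, at 66.7. On the 5 other arrays it lay between 380 (miR-181a) and 804 (miR-32), so the control was the highest of the 9 arrays and miR-181b the lowest of the single transfections.

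ILMN_1653934 was at 5590 on the control and 904 on miR-181b, a difference of -2.48 (5.59-fold lower). The miRNA combination had 754, the siRNA combination 1334 and siPIK3R1 1810, while miR-181a had 3199, miR-455 3310, miR-32 5006 and siPIK3R3 5273. The 4 lowest raw values thus occurred on the 4 arrays with the lowest mean raw signal, whose part in this was not tested. After normalization, the difference from the control was -2.34 in the miRNA combination, near that in miR-181b, and smaller in siPIK3R1 (-1.32), the siRNA combination (-1.12), miR-455 (-0.99) and miR-181a (-0.84), and it was -0.34 in miR-32 and -0.02 in siPIK3R3.

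**Figure D3:**
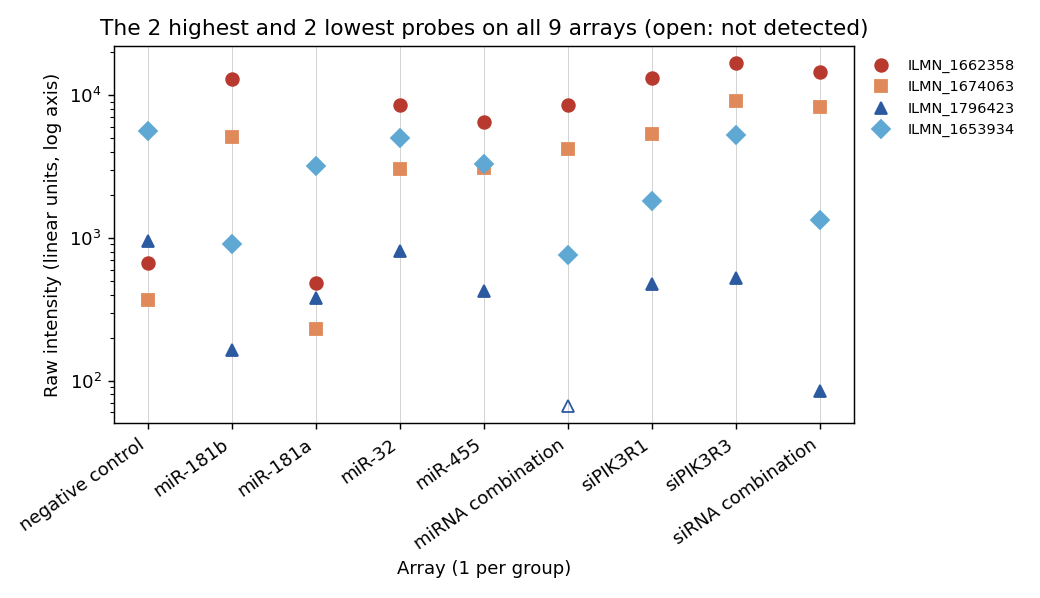
Raw intensity (vertical, log axis) of the 2 highest probes (red and orange) and the 2 lowest probes (blues) of the miR-181b comparison on each of the 9 arrays (horizontal). An open symbol was not detected. The red and orange probes are low on the control and miR-181a alone, and the blue ones are lowest on miR-181b and the combinations.

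The next question was which of the 2 arrays set a called probe apart, miR-181b or the control. Each was compared with the median of the 7 other transfections, a reference that holds neither array. Of the 311 higher probes, miR-181b was at least 2-fold above this median at 71 (22.8%), while the control was at least 2-fold below it at 135 (43.4%), with 15 probes in both counts. At 120 (38.6%) neither reached 2-fold. Of the 249 lower probes, miR-181b was 2-fold below the median at 49 (19.7%) and the control 2-fold above it at 33 (13.3%), with 2 in both counts and 169 (67.9%) in neither. The control was the lowest of all 9 arrays at 130 of the higher probes and the highest at 132 of the lower ones. The miR-181b array was the highest at 43 of the higher and the lowest at 52 of the lower probes. These probes were chosen for the distance between the 2 arrays, so the counts describe where each array lay and test nothing. Undetected values entered them at no less than the lowest detected level of their array. That level was 5.91 on miR-181b, the highest of the 9 arrays, and 5.78 on the control. An undetected miR-181b value therefore could not rank lowest where another array's value stood at its own, lower level. Leaving both combinations out of the median turned the order among the higher probes, to 123 for miR-181b and 88 for the control.

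**Figure D4:**
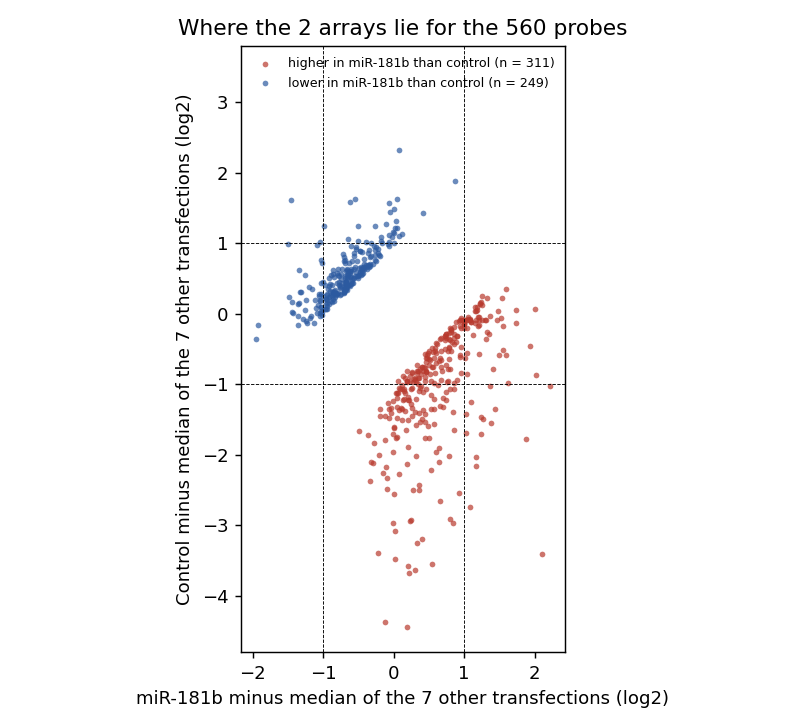
Position of miR-181b (horizontal) and of the control (vertical) relative to the median of the 7 other transfections, both in log2, for the 311 higher (red) and 249 lower (blue) probes, with dashed lines at 2-fold. More red points lie beyond the lower horizontal line (135) than beyond the right vertical line (71).

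No probe was set apart in miR-181b from all other arrays. A probe counted as set apart when it was at least 2-fold above, or below, each of the 8 other arrays, and 0 probes were above and 0 below (1 below in the authors' processed values). A probe above had to be detected on the array in question, and a probe below on all the other arrays. The probes that could count as above thus differed by array, from 14304 on miR-181b to 15775 on miR-32. Those that could count as below included at least the 12202 detected on all arrays. The same rule gave 0 and 0 for miR-32 and miR-455, 0 above and 6 below for miR-181a, and 54 above and 12 below for siPIK3R3. It gave 0 above and 4 below for the control and 4 and 6 for siPIK3R1. For the miRNA combination it gave 2 and 0, and for the siRNA combination 32 and 8. At 1.5-fold, 16 probes were above and 12 below all others in miR-181b. Without the miRNA combination among the arrays, 0 probes were above and 1 below at 2-fold, and without either combination 4 were above and 4 below. Leaving out siPIK3R1 too gave 47 above and 36 below. These last counts set miR-181b against miR-32, miR-455, miR-181a, siPIK3R3 and the control only.

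The probes at 2-fold also stood apart in some of the arrays that had no part in choosing them, but not in all. The other arrays were set against miR-32, so that neither miR-181b nor the control entered, and the sets keep the direction they had in miR-181b. In the miRNA combination minus miR-32, the higher probes had a median of 0.90 (quartiles 0.41 and 1.37) and the lower probes a median of -1.01 (quartiles -1.34 and -0.67), while all 16905 probes compared had a median of 0.01. Of 310 higher probes compared there, 132 were at least 2-fold higher (42.6%), where 3.98% of all probes were. Of the 249 lower probes, 128 were at least 2-fold lower (51.4%), where 4.13% of all probes were.

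The siRNA combination minus miR-32 gave medians of 1.54 for the higher and -1.06 for the lower probes. There 236 of 309 higher probes were at least 2-fold higher (76.4%), against 6.43% of all probes, and 135 of 249 lower probes at least 2-fold lower (54.2%), against 5.57%. Both sets of probes thus had, at their medians, the direction of the miR-181b comparison in both combinations.

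In siPIK3R1 minus miR-32 the same was seen with smaller sizes. The medians were 0.54 for the higher and -0.52 for the lower probes, with 82 of 307 higher probes at least 2-fold higher (26.7%, against 4.06% of all probes) and 54 of 249 lower probes at least 2-fold lower (21.7%, against 1.99%). With median scaling over all probes the median of the higher probes was -0.10, where that of all probes was -0.56, and that of the lower probes was -1.11.

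In siPIK3R3 minus miR-32 the higher probes stood above the rest, while the lower ones lay near it. The higher probes had a median of 1.05, and 153 of 299 were at least 2-fold higher (51.2%, against 2.67% of all probes). The lower probes had a median of -0.08 with quartiles of -0.43 and 0.19, and 12 of 249 were at least 2-fold lower (4.82%, against 1.06%). The set of lower probes was low where the mean raw signal was low, on siPIK3R1 and both combinations, and siPIK3R3 with its mean of 392 was not among these arrays. The part of the array signal in this was not tested.

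In miR-181a minus miR-32, the array whose microRNA shares the seed of miR-181b, neither set had the direction it had in miR-181b. The higher probes had a median of -0.26 (quartiles -0.90 and 0.13), with 3 of 297 at least 2-fold higher (1.01%, against 0.0553% of all probes) and 69 at least 2-fold lower (23.2%, against 0.498%). The lower probes had a median of -0.0025 (quartiles -0.27 and 0.22), and 3 of 249 were at least 2-fold lower (1.20%, against 0.498%). Against the control, whose array had a part in choosing both sets, the higher and lower probes had medians of 0.08 and -0.27 in miR-181a. In miR-32 these medians were 0.54 and -0.31, so the reference array itself lay in the direction of miR-181b. For miR-455 minus miR-32 the medians were 0.08 and -0.09. With miR-455 as the reference in place of miR-32, the medians of the higher probes were -0.37 for miR-181a, 0.50 for siPIK3R1, 1.01 for siPIK3R3, 0.83 for the miRNA combination and 1.46 for the siRNA combination. Those of the lower probes were 0.10, -0.41, -0.02, -0.94 and -0.99 in the same order.

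**Figure D5:**
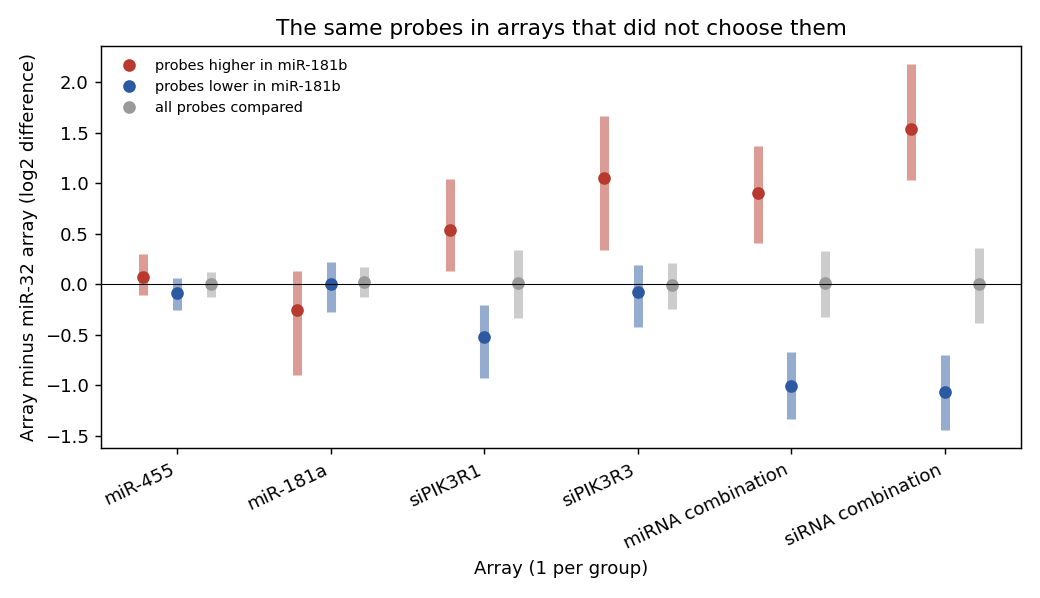
Medians (points) and quartiles (bars) of the difference from the miR-32 array (vertical, log2) on 6 arrays (horizontal), for the probes higher in miR-181b than the control (red), those lower (blue) and all probes compared (grey). Red medians are 0.54 to 1.54 in both siRNAs and both combinations and -0.26 in miR-181a, and blue medians are -0.52 to -1.06 in siPIK3R1 and both combinations and near 0 in siPIK3R3 and miR-181a.

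Set against the control, which all these comparisons share, the 65 probes at least 4-fold higher in miR-181b had a median fold of 6.77 there. Their medians were 2.87-fold higher in miR-32, 3.01 in miR-455, 4.85 in siPIK3R1, 11.9 in siPIK3R3, 6.64 in the miRNA combination and 15.9 in the siRNA combination. In miR-181a the median log2 difference was 0.048, which is no measured difference. It is the gap between the lowest detected levels of the miR-181a array (5.823) and the control (5.775), to which undetected values were raised. All 65 probes entered these medians, also where neither the array in question nor the control detected them. Of the 65, 47 were detected on both arrays, and their raw signals on miR-181b ranged from 286 to 14572 with a median of 823, so they were not confined to dim probes. The 8 probes at least 4-fold lower had a median log2 difference of -2.22 in miR-181b, -2.37 in the miRNA combination and -2.53 in the siRNA combination. It was -1.36 in miR-455, -1.30 in siPIK3R3, -1.24 in miR-181a, -0.87 in siPIK3R1 and -0.54 in miR-32.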

How the data were processed

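RNA from KYSE30 cells was labeled with biotin using an Ambion MessageAmp kit for Illumina arrays, per the labels' protocols. The raw table deposited by the authors holds a signal intensity on a linear scale and a detection p-value for each of 47317 probes and 9 arrays, per the file headers. The authors' second deposited table gives processed intensity values, each a straight line of each array's raw signal, with a background level subtracted and equal array means. Array version, scanner software and the authors' steps are not stated in the labels or headers.

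Raw intensities were corrected and quantile normalized by the neqc function (limma 3.58.1, R 4.3.3), which estimated the background from the detection p-values, with an offset of 16, over all 9 arrays. Other steps used Python 3.11.15, numpy 2.4.6 and pandas 2.3.3. Undetected values were raised to the array's lowest detected value. A size rule of 2-fold replaced a test, since each group has 1 array, and the number of arrays limits the precision. The 2-fold count and the rule on probes set apart were run on simulated arrays with all probes detected. The normalization, the handling of undetected values and the comparison with the median of other transfections were not tested in this way. Probes have no gene names here, so gene lists, cell type markers and the planned named genes were not analysed here, and the 2 highest and 2 lowest probes detected on both arrays were named instead. Members, lists and rules were chosen with earlier results of these data known. The comparisons without the miR-181b and control arrays, with the median of the 7 other transfections and with fewer arrays in the rule on probes set apart were added after seeing the data.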

Additional observations from a re-analysis of the deposited data

How the results depend on the processing

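With 1 array per group, no alternative measures replicate error, and the cause of a changed value was not tested. No paired analysis was possible because no group holds more than 1 array. The alternatives for gene lists and for the mean of a gene's probes were not run, since probe numbers could not be matched to genes. Of 78 alternative counts, 39 stayed within 1.5 times the reported count. Of 60 alternative medians of sets, 58 stayed within 1.5-fold of the reported median. That tolerance is wider than several of the medians themselves, so a median near 0 could change its sign and still stay within it. The sign of 2 medians changed, that of the higher probes in siPIK3R1 given below and that of the lower probes in miR-181a, which went from -0.0025 to 0.10 with miR-455 in place of miR-32.

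The 311 higher and 249 lower probes became 176 and 66 without background correction. The authors' processed values gave 468 higher probes and an offset of 50 gave 113 lower ones. Median scaling over all probes, most of which are background, gave 189 higher and 719 lower. Without a detection filter 431 were lower. At 1.5-fold the counts were 1268 and 1440, and at 4-fold 65 and 8. With another reference in place of the control they were 110 and 66 (median of the 8 other arrays) and 110 and 65 (median of the 7 other transfections). Against single arrays, the higher and lower probes were 331 and 154 for miR-32, 258 and 135 for miR-455, and 497 and 316 for miR-181a. They were 125 and 176 for siPIK3R1, 440 and 608 for siPIK3R3, 208 and 155 for the miRNA combination, and 334 and 409 for the siRNA combination. The probes compared with these arrays numbered from 15426 (siPIK3R1) to 16440 (miR-32). For the other settings, only counts beyond 1.5 times the reported one are listed.

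The 71 higher probes with miR-181b above the median of the other transfections became 30 without background correction, 110 in the authors' processed values, 39 with an offset of 50, 24 with median scaling and 123 without both combinations in that median, and the 135 with the control below it became 88 in the last setting. The 49 lower probes with miR-181b below the median became 13, 76, 21, 283 and 74 in the same order, and the 33 with the control above it became 8 without background correction, 13 with an offset of 50 and 15 without both combinations. The 0 probes below all 8 other arrays became 1 in the authors' processed values, and at 1.5-fold 16 were above and 12 below. For siPIK3R1 minus miR-32, median scaling turned the median of the higher probes to -0.10 and that of the lower probes to -1.11.

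ILMN_1674063 differed by -0.12 from the median of the 7 other transfections and from the miRNA combination, by -0.17 from siPIK3R1, by -0.64 from siPIK3R3 and by -1.37 from the siRNA combination. ILMN_1662358 differed by -0.12, -0.18 and -0.54 from siPIK3R1, siPIK3R3 and the siRNA combination. ILMN_1796423 was higher than in the miRNA combination, where it was not detected, by at least 0.88, and than in the siRNA combination by 0.48.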
